A study of Homo sapiens with 6 samples.

Results

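The genes described here are 10 genes of glycolysis and of the response to low oxygen, chosen by name: SLC2A1, HK2, PFKP, ALDOA, PGK1, ENO1, LDHA, PDK1, CA9 and BNIP3. Of the 10, 9 were among the 30015 genes of the table, and all 9 passed the minimum of 10 normalized counts on average that left 15251 genes for testing. CA9, a carbonic anhydrase of the cell surface, was not analysed here.

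Messenger RNA was sequenced from HMV-II, an established human mucosal melanoma cell line of vaginal origin, in 3 Vector and 3 shEZH2 libraries, to find the genes and pathways influenced by EZH2. EZH2 is the histone methyltransferase of Polycomb repressive complex 2. Both groups were stable lines made with lentivirus and selected with puromycin. The Vector cells carried a control construct, and the shEZH2 cells carried a short hairpin RNA against EZH2, which the table's header calls sh1. Both groups were grown in F10 medium with serum, and no low-oxygen culture was among the samples. With 1 hairpin in the data, an effect of losing EZH2 and an effect of that hairpin cannot be told apart. The labels do not say whether the 3 libraries of a group came from separate cultures, so the p-values measure the spread between these libraries, which may be technical.

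Glycolysis turns glucose into pyruvate in the cytosol and yields ATP without oxygen. Glucose enters through transporters such as SLC2A1, is trapped by hexokinases, is split into triose phosphates and is oxidised to pyruvate, which lactate dehydrogenase reduces to lactate. In many tumours this route runs fast even with oxygen present. When oxygen is low, hypoxia-inducible factor (HIF), a dimer of an oxygen-regulated alpha subunit and ARNT, escapes VHL-dependent destruction and binds short DNA elements near many of these genes. PDK1, CA9 and BNIP3 belong to the same response: PDK1 blocks the entry of pyruvate into the tricarboxylic acid cycle, CA9 helps to export acid, and BNIP3 marks mitochondria for removal.

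In limma with all 6 libraries, none of the 9 genes passed the threshold of the study's methods. That threshold asks for a 1.5-fold difference in either direction together with an unadjusted p under 0.05. HK2 came nearest, at a log2 fold change of -0.55, and passed it with DESeq2, the tool that the study's methods name. ENO1, BNIP3, LDHA, PGK1 and SLC2A1 were above every Vector library in every shEZH2 library, by 0.22 to 0.47. PFKP, ALDOA and PDK1 overlapped between the groups. Around them, other genes of the same route passed the threshold, among them ENO2 and PGAM1 (higher) and the regulator TXNIP (lower), as did P4HA1 (lower) among other hypoxia-inducible genes.

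Promoters were compared first, since the shared element is what ties these genes to HIF. The core of that element, ACGTG or GCGTG on either strand (CACGT or CACGC on the other), was searched in the 250 bases before the RefSeq transcription start (GRCh38.p14), and overlapping matches such as CACGTG were counted as 1 site. All 10 genes had a window, and 7 of the 10 held a core, whereas 43.2% of 35116 promoter windows of the same length did. Where a listed gene had several windows, the 1 nearest its listed 5′ end was taken, while the 43.2% is over all windows without such a choice. Another start could give another count. A match of 5 letters is a description of the sequence and not evidence that HIF binds there. The 5 windows printed below, 5′ to 3′ on the strand of the gene, belong to the genes whose libraries did not overlap between the groups and that held a core, and the cores are in capitals.
HK2: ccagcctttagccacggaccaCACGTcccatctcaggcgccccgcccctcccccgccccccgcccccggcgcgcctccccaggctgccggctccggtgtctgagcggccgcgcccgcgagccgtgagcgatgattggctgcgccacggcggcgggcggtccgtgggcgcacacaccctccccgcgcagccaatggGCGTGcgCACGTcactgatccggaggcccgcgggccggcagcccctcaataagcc
PGK1: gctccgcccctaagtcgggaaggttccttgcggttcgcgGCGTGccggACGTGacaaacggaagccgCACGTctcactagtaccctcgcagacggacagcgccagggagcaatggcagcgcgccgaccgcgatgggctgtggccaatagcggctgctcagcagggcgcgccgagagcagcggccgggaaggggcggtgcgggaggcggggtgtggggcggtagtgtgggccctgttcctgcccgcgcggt
ENO1: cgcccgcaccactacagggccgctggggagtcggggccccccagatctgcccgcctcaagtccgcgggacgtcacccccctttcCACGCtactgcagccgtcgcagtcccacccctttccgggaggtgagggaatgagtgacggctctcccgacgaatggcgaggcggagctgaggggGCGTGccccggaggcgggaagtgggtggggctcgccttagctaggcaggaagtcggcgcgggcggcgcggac
LDHA: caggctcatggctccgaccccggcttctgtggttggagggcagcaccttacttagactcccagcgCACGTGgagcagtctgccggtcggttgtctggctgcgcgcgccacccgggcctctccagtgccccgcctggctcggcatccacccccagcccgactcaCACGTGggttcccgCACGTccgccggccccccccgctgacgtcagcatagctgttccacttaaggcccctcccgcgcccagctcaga
BNIP3: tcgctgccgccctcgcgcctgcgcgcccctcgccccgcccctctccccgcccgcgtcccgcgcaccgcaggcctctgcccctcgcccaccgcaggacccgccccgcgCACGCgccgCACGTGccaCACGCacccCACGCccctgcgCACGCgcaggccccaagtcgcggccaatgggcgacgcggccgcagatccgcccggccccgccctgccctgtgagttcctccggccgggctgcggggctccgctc

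BNIP3 (chr10:131981924-131982173, minus strand) held the most, with 5 sites, all between 143 and 104 bases before the start and 4 of them of the GCGTG form. LDHA (chr11:18394313-18394562, plus strand) held 3, each of the ACGTG form, and in 2 of them the core lay in the palindrome CACGTG. PGK1 (chrX:78103998-78104247, plus strand) held 3 in a row between 211 and 183 bases before the start. HK2 (chr2:74833877-74834126, plus strand) also held 3, with 2 of them side by side at 55 and 48 bases before the start. ENO1 (chr1:8878687-8878936, minus strand) held 2, both GCGTG. Over all windows, 5.44% held 3 or more sites and 18.5% held the ACGTG form. ALDOA and CA9 held 1 site each, and the windows of SLC2A1, PFKP and PDK1 held 0, which says only that these letters are not in those windows. HK2 held as many sites as LDHA and PGK1 and was the one gene of the 6 without overlap that was lower in shEZH2 cells.

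EZH2 itself was lower in every shEZH2 library: 483, 437 and 552 normalized counts in Vector against 237, 247 and 225 in shEZH2. The log2 fold change was -1.04 (SE 0.14), with an adjusted p of 0.0142 in the limma test, and of up to 0.128 over all settings tried. A normalized count is the number of reads on a gene divided by 1 size factor per library. Depth was 13400290 to 15923029 reads in Vector and 16129171 to 19128939 in shEZH2. Vector replicate 2, the shallowest library, stood apart by gene length: against the mean of all 6 libraries its log2 values had a median deviation of -0.49 in the shortest 20% of genes and 0.37 in the longest 20%. The shEZH2 replicate 1 deviated less and in the opposite direction, at 0.24 and -0.19, so leaving out Vector replicate 2 does not remove the whole length trend. Among the 9 genes Vector replicate 2 was the lowest of all 6 libraries for 5 (SLC2A1, PGK1, ENO1, LDHA and BNIP3) and the highest for 2 (HK2 and PDK1). The fold changes of the 9 genes are therefore also given without it. Markers of the melanocyte lineage summed to 75515 to 100744 normalized counts per library, and 8 markers of leukocytes, endothelium, epithelium and fibroblasts, of which 6 were listed, to 36.7 to 81.5, with most of the highest sum in VWF (67.5 in Vector replicate 2). The means in Vector and shEZH2 were 8.71 and 9.87 for PTPRC, 3.17 and 6.95 for KRT14, 2.08 and 1.70 for PECAM1, 1.36 and 1.59 for EPCAM, and 0.339 and 0.954 for DCN.

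Over all genes tested, 7.55% were called higher and 7.07% lower at the threshold in limma, and the 9 genes gave 0 and 0. With limma, 2 of the 9 (HK2 and BNIP3) had an unadjusted p under 0.05 at any fold change, against 23.2% of all genes, and 0 of the 9 had an adjusted p under 0.05, against 4.12%. The first count was 1 without shEZH2 replicate 1 or 3, and 3 (HK2, BNIP3 and ENO1) without Vector replicate 2, with the gene length trend removed, or with DESeq2. The second was 2 (HK2 and ENO1) without Vector replicate 2, 1 (HK2) with the length trend removed or with DESeq2, and 0 with edgeR. The 23.2% and 4.12% belong to limma with all 6 libraries, and the shares of all genes in these alternatives are not given here. Without Vector replicate 2 the second count also rose among 8 melanocyte markers, from 1 to 4. For the transporters of glucose and lactate it stayed at 2. The 5 genes above without overlap stand against 18.4% of all genes, and the 1 below (HK2) against 16.5%. The median log2 fold change of the 9 genes was 0.22 beside 0.04 over all genes tested. Without Vector replicate 2 the medians were 0.15 and -0.01.

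**Figure D1:**
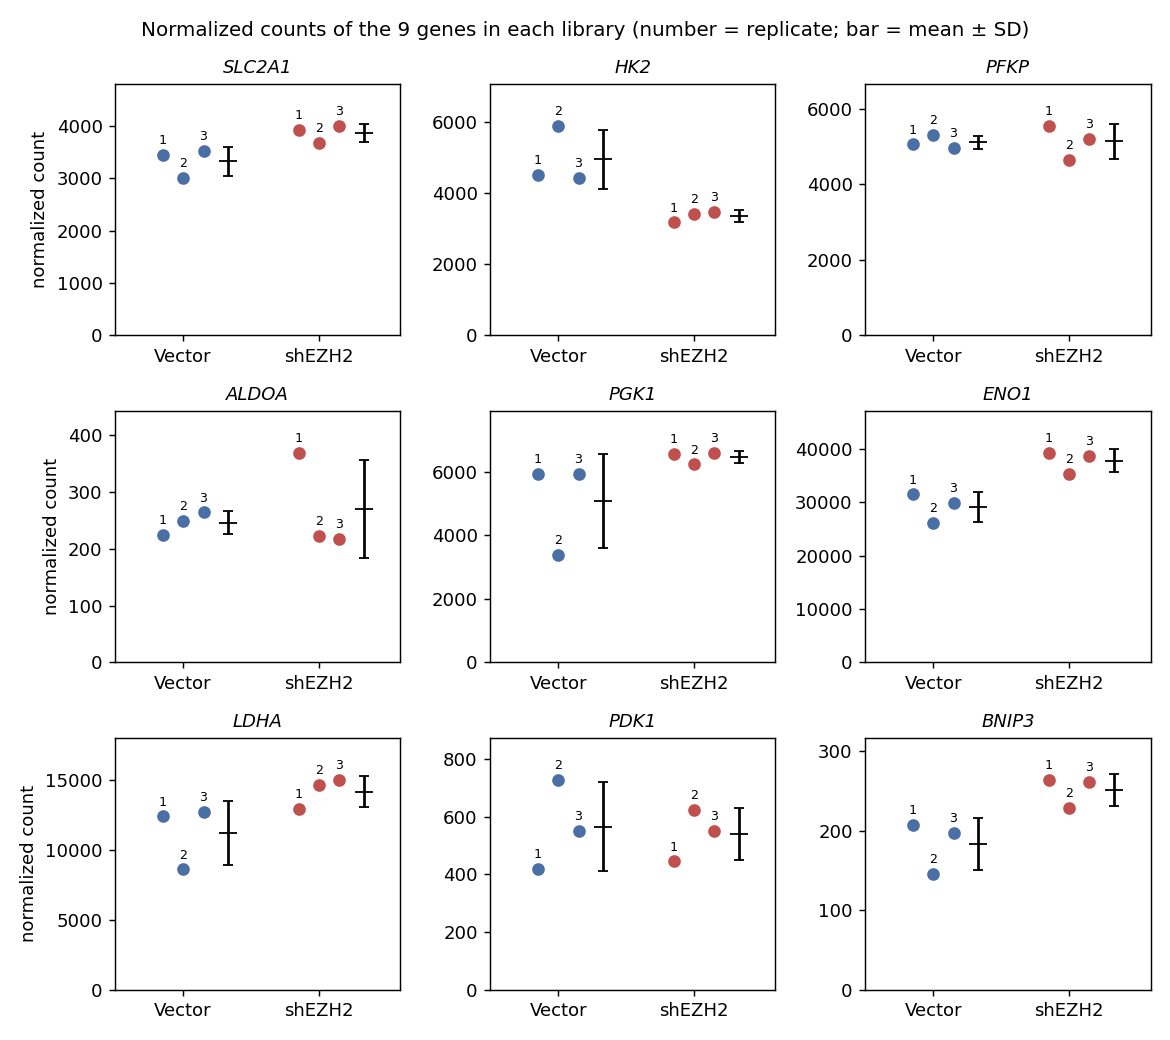
Normalized counts (y axes, from 0) of the 9 genes in each of the 3 Vector (blue) and 3 shEZH2 (red) libraries, with the replicate number over each point and the mean ± SD beside each group. HK2 is lower in all 3 shEZH2 libraries, SLC2A1, PGK1, ENO1, LDHA and BNIP3 are higher in all 3, and Vector replicate 2 is the extreme Vector library of each of these 6 genes.

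SLC2A1 (ENSG00000117394, chr1:42925375-42959176, minus strand, GRCh38 as for all genes below) encodes GLUT1, the basal glucose transporter. It had 3448, 3006 and 3524 normalized counts in the Vector libraries and 3918, 3677 and 4005 in the shEZH2 libraries. Every shEZH2 library was above every Vector library, but by a small margin. The means were 3326 ± 280 (SD, n = 3) and 3867 ± 170 (SD, n = 3), a log2 fold change of 0.22 (95% interval -0.09 to 0.53) with an adjusted p of 0.353 in limma. Without Vector replicate 2 it was 0.15.

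HK2 (ENSG00000159399, chr2:74833981-74893359, plus strand) encodes a hexokinase that docks on mitochondria and makes the first step, the phosphorylation of glucose. Its normalized counts were 4506, 5889 and 4421 in Vector and 3169, 3416 and 3475 in shEZH2, so that the highest shEZH2 library lay below the lowest Vector library. The mean went from 4939 ± 824 (SD, n = 3) to 3353 ± 163 (SD, n = 3), a fold of 0.685 (95% interval 0.531 to 0.883). On the log2 scale this was -0.55 (SE 0.16), with an adjusted p of 0.0976 in limma, and the size was just short of what the threshold asks for. Without Vector replicate 2 the difference was smaller, at -0.41, and the spread was smaller too, giving an adjusted p of 0.00797 in the same limma test. Under all settings tried the log2 fold change stayed between -0.62 and -0.41 and the adjusted p ranged from 0.00797 to 0.302. DESeq2 and edgeR with upper-quartile scaling placed HK2 past the threshold, as did leaving out Vector replicate 1 or 3 (-0.61 and -0.62).

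PFKP (ENSG00000067057, chr10:3066333-3137712, plus strand) is the platelet-type phosphofructokinase, which commits sugar to glycolysis. It had 5062, 5304 and 4980 normalized counts in Vector and 5562, 4649 and 5215 in shEZH2. The groups overlapped, with the highest and the lowest library both in shEZH2. Its log2 fold change was 0.00 (95% interval -0.31 to 0.32), 0.03 without Vector replicate 2, and its sign depended on the setting.

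ALDOA (ENSG00000149925, chr16:30064164-30070457, plus strand) encodes the main aldolase, which splits fructose bisphosphate. Its normalized counts were only 225, 249 and 264 in Vector and 368, 222 and 218 in shEZH2. The shEZH2 replicate 1 stood above the other 5 libraries, and shEZH2 replicates 2 and 3 lay below all 3 Vector libraries. The log2 fold change was 0.09 (95% interval -0.44 to 0.62), 0.10 without Vector replicate 2 and -0.16 without shEZH2 replicate 1. ALDOA had 65.8 normalized counts per kilobase of gene length, where the enzymes after it in the route, GAPDH and ENO1, had 18104 and 6344. The table also lists AC093512.2, a gene on the same strand that overlaps 6257 bases of ALDOA, and in GENCODE v44 lifted to GRCh37 42.8% of the exonic bases of ALDOA (1639 of 3829) are shared with it. How reads on shared bases were assigned is not given in the sources used here, so the ALDOA counts are uncertain.

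PGK1 (ENSG00000102144, chrX:77910739-78129296, plus strand) encodes phosphoglycerate kinase, the first step of the route that makes ATP. Its normalized counts were 5935, 3373 and 5916 in Vector and 6547, 6227 and 6593 in shEZH2. The shEZH2 libraries lay above all Vector libraries, but Vector replicate 2 alone made most of the difference. The log2 fold change was 0.39 (95% interval -0.15 to 0.94), with an adjusted p of 0.345 in limma, and 0.12 without that library. The table's PGK1 interval overlaps ATP7A, on the same strand, which had 223 normalized counts on average.

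ENO1 (ENSG00000074800, chr1:8861000-8879250, minus strand) encodes the ubiquitous enolase. It was the most abundant of the 9 genes per length, at 6344 normalized counts per kilobase, above 99.6% of the genes tested. Vector libraries had 31472, 26073 and 29928 normalized counts and shEZH2 libraries 39269, 35346 and 38752. The lowest shEZH2 library was above the highest Vector library, and the means were 29158 ± 2781 (SD, n = 3) and 37789 ± 2131 (SD, n = 3). This is a log2 fold change of 0.38 (SE 0.17), with an adjusted p of 0.231 in limma. Without Vector replicate 2 it was 0.30, with an adjusted p of 0.0389 (0.0389 to 0.508 over all settings).

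LDHA (ENSG00000134333, chr11:18394388-18408425, plus strand) encodes the lactate dehydrogenase subunit that favours lactate production. Its normalized counts were 12419, 8613 and 12722 in Vector and 12931, 14647 and 15034 in shEZH2. The groups did not overlap, although shEZH2 replicate 1 was close to the Vector libraries 1 and 3. The log2 fold change of 0.36 (95% interval -0.10 to 0.81), with an adjusted p of 0.314 in limma, was 0.17 without Vector replicate 2. Of 2 listed LDHA pseudogenes, which can share reads with it, the larger had 16.0 normalized counts.

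PDK1 (ENSG00000152256, chr2:172555373-172608669, plus strand) encodes a kinase that switches off pyruvate dehydrogenase. It had 418, 728 and 551 normalized counts in Vector and 445, 624 and 552 in shEZH2. The groups overlapped almost completely, with the highest and the lowest library both in Vector. Its log2 fold change was -0.04 (95% interval -0.58 to 0.49). It was 0.16 without Vector replicate 2, so the data give no direction for PDK1.

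BNIP3 (ENSG00000176171, chr10:131966455-131982013, minus strand) encodes a receptor for mitophagy on the outer mitochondrial membrane and is a well-known target of HIF. Its normalized counts were 207, 146 and 198 in Vector and 264, 228 and 262 in shEZH2. All shEZH2 libraries were above all Vector libraries, at means of 251 ± 19.8 (SD, n = 3) and 183 ± 33.1 (SD, n = 3). Its log2 fold change was 0.47 (SE 0.18), with an adjusted p of 0.182 in limma, and 0.31 without Vector replicate 2. The table lists 15 BNIP3 pseudogenes with 41.6 normalized counts in all, and reads that could belong to either are uncertain.

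**Figure D2:**
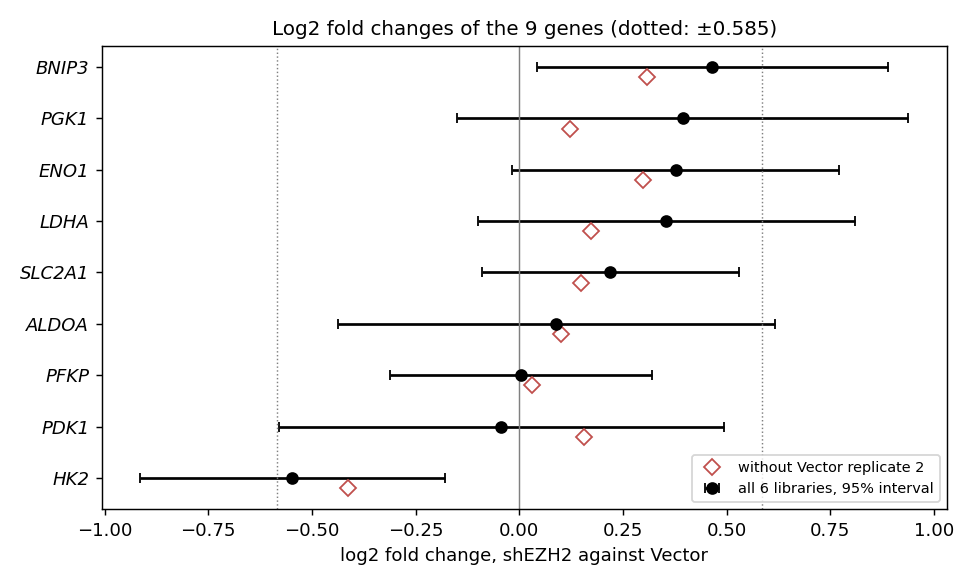
Log2 fold change of each gene, shEZH2 against Vector (x axis), with all 6 libraries (black points, 95% limma interval) and without Vector replicate 2 (open diamonds). Dotted lines mark the 1.5-fold threshold, which no point reaches: HK2 lies at -0.55, and 5 genes lie between 0.22 and 0.47 and move toward 0 without that library.

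Permuting the group labels exactly (20 ways to arrange 6 libraries, two-sided) gave p = 0.1, the smallest value such an exact test allows, for each of the 6 genes without overlap, and 1 for PFKP, ALDOA and PDK1. In order of normalized counts per kilobase over all libraries, ENO1 (6344) was followed by LDHA (2050), PFKP (1061), PGK1 (1046), SLC2A1 (761), HK2 (684), ALDOA (65.8), BNIP3 (40.8) and PDK1 (37.2). Over all 6 libraries, the neighbours PFKP and PGK1, PGK1 and SLC2A1, SLC2A1 and HK2, and BNIP3 and PDK1 overlapped, and some changed places by group. The mean of HK2 per kilobase was 814 in Vector and 553 in shEZH2, beside 704 and 819 for SLC2A1, and in shEZH2 these levels did not overlap. BNIP3 had 34.4 and 47.2 and PDK1 38.0 and 36.3, also without overlap in shEZH2. PFKP had 1058 and 1063 and PGK1 921 and 1171, overlapping in both groups. PGK1 and SLC2A1 overlapped in Vector and not in shEZH2.

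Several steps can be made by more than one isozyme, and a share within a family does not depend on the size factor of a library. It can still carry the gene length trend of a library where isozymes differ in length, as PFKP (4836 bases) and PFKM (7318 bases) do. The part of that trend in the shares was not tested. The largest shift was among the hexokinases. HK2 made up 60.5%, 62.8% and 62.1% of the hexokinase reads per kilobase in Vector and 45.7%, 48.3% and 48.0% in shEZH2. HK1, the constitutive hexokinase, went the other way, from 33.1%, 33.1% and 31.6% to 47.0%, 45.0% and 46.3%. The difference in the HK2 share was -14.5 points (SE 1.06), and Vector replicate 2, at 62.8%, lay close to the other Vector libraries. HK1 was above without overlap in counts as well: the log2 fold change of HK1 was 0.34 with an adjusted p of 0.242 in limma (0.47 without Vector replicate 2, adjusted p 0.00405, with a range of 0.00405 to 0.501 over all settings).

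Among the phosphofructokinases, PFKP made up 68.9% ± 2.22 (SD, n = 3) in Vector and 63.2% in shEZH2, a difference of -5.72 points. PFKM, the muscle type, went from 22.4% to 28.0%, with a log2 fold change of 0.46 (adjusted p 0.113 in limma), all shEZH2 libraries being above all Vector libraries. ENO1 kept over 90% of the enolase reads in every library, but its share went from 93.4% to 90.4% (SE of the difference 0.26 points) beside ENO2, which went from 5.88% to 8.95%. SLC2A1 took 54.7% of the reads of the facilitative glucose transporters in Vector and 60.5% in shEZH2, and SLC2A3, the high-affinity GLUT3, took 29.6% and 23.7%.

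BNIP3 made up 11.5% and 15.4% of the reads per kilobase of the pair BNIP3 and BNIP3L (also called NIX). These 5 shares did not overlap between the groups, with an exact permutation p of 0.1, the smallest possible, and 0.16 after adjustment over the 8 families compared. The shares of LDHA (90.6% and 86.6%, exact p = 0.3), PDK1 (34.1% and 26.4%, exact p = 0.2) and ALDOA (92.8% and 90.7%, exact p = 0.4) overlapped. LDHB had 861, 218 and 715 normalized counts in Vector and 1213, 963 and 979 in shEZH2, so its log2 fold change of 1.03 (adjusted p 0.241 in limma) rested mostly on Vector replicate 2 and was 0.41 without it. Per kilobase, PDK3 was the leading pyruvate dehydrogenase kinase, at 49.7% in Vector and 53.0% in shEZH2. This order rests on the gene lengths used, 4951 bases for PDK3 and 14883 for PDK1. By mean normalized count over all libraries PDK1 was ahead, at 553 against 316 for PDK3. PGK1 was the single listed phosphoglycerate kinase.

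The rest of the pathway was read from lists of known genes. The counts of calls in these short lists stand beside 7.55% called higher and 7.07% called lower over all genes tested. Of 12 transporters of glucose and lactate tested, 2 rose and 1 fell at the threshold. SLC2A6, a glucose transporter of internal membranes, had 74.2, 67.5 and 73.3 normalized counts in Vector and 172, 160 and 190 in shEZH2 (log2 fold change 1.27, adjusted p 0.0111 in limma, and 1.22 without Vector replicate 2). SLC16A3, the lactate exporter MCT4 and itself a target of HIF, rose by 0.76 on the log2 scale (adjusted p 0.0490 in limma), with 243, 270 and 301 against 530, 400 and 450 normalized counts. Over all settings the adjusted p ranged up to 0.112 for SLC2A6 and 0.223 for SLC16A3. SLC16A8, another lactate transporter, fell by 0.99, but its groups overlapped, the adjusted p was 0.206 in limma, and the call was lost without Vector replicate 1 or 2 or shEZH2 replicate 2 or 3. The median of this list was -0.07.

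Among the 11 enzymes from glucose to triose phosphate, none was called at the threshold, 10 had a positive log2 fold change (7 with a gene length trend removed) and the median was 0.17. Among the 11 enzymes from triose phosphate to lactate, 2 were called higher and 0 lower, and 11 of 11 had a positive log2 fold change with a median of 0.38 (0.23 without Vector replicate 2), beside 8157 positive values among the 15251 genes tested. The count of positive values was 10 under TMM, upper-quartile or DESeq2 scaling, with the length trend removed, and without Vector replicate 2 or shEZH2 replicate 1 or 3, GAPDH being at 0.00 with all libraries. ENO2, the neuronal enolase, had 1543, 1317 and 1612 normalized counts in Vector and 3012, 2976 and 3102 in shEZH2. It rose by 1.03 on the log2 scale with an adjusted p of 0.0121 in limma (0.94 without Vector replicate 2), against the 0.38 of ENO1. The adjusted p of ENO2 ranged up to 0.117 over all settings. PGAM1, the phosphoglycerate mutase before enolase, rose by 0.61 (adjusted p 0.116 in limma), from 2127, 1438 and 2220 to 2828, 2842 and 2977, and by 0.41 without Vector replicate 2, which is below the threshold. That call was also lost without shEZH2 replicate 3. The 26 listed enzymes of both lists took 1.08%, 0.942% and 1.05% of all reads in Vector and 1.26%, 1.21% and 1.26% in shEZH2, so these shares did not overlap. A few abundant genes weigh most in such a sum. ENO1 took 0.192%, 0.167% and 0.185% in Vector and 0.256%, 0.231% and 0.246% in shEZH2. PKM of the same lists took 0.202%, 0.197% and 0.198% against 0.266%, 0.252% and 0.264%. GAPDH, with the largest share of these, overlapped, at 0.361%, 0.304% and 0.343% against 0.341%, 0.343% and 0.361%. In bulk RNA, fewer cells with a gene on and less RNA per cell cannot be told apart.

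Of 9 regulators of glycolytic flux tested, 0 were called higher and 2 lower. TXNIP, an arrestin-like protein that removes glucose transporters from the membrane and is induced by glucose, had 350, 270 and 438 normalized counts in Vector and 175, 178 and 193 in shEZH2. It fell by 0.92 on the log2 scale (adjusted p 0.0466 in limma), and by 1.10 without Vector replicate 2. Its relative ARRDC4 fell by 0.69 (adjusted p 0.0471 in limma; up to 0.194 for TXNIP and 0.224 for ARRDC4 over all settings), with 314, 348 and 322 against 180, 225 and 204. The median of the list was -0.25, and -0.03 without Vector replicate 2.

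Of 13 genes of pyruvate entry into mitochondria, 3 were called higher and 0 lower, beside 7.55% and 7.07% of all genes tested. PDK2, a relative of PDK1, had 108, 78.0 and 101 normalized counts in Vector and 166, 137 and 156 in shEZH2 (log2 fold change 0.68, adjusted p 0.0872 in limma). PDHB, a subunit of pyruvate dehydrogenase, rose by 0.66, and MPC2, a subunit of the mitochondrial pyruvate carrier, by 1.11, with adjusted p of 0.180 and 0.210 in limma. In MPC2 the Vector libraries had 311, 79.2 and 249 normalized counts, and without Vector replicate 2 the log2 fold changes of these 3 genes were 0.54, 0.35 and 0.51, all below the fold change threshold. The calls of PDHB and MPC2 were also lost without any single shEZH2 library.

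Of 10 genes of oxygen sensing and HIF subunits tested, 1 was called higher and 0 lower. CITED2, a HIF target that competes with HIF for its coactivators, had 232, 175 and 256 normalized counts in Vector and 352, 326 and 360 in shEZH2 (log2 fold change 0.66, adjusted p 0.0822 in limma, and 0.50 without Vector replicate 2). HIF1A, which encodes the alpha subunit itself and is named here after its values were seen, had 7295, 8279 and 7318 against 4735, 6720 and 5613 normalized counts. All shEZH2 libraries were below all Vector libraries, with a log2 fold change of -0.44 (adjusted p 0.184 in limma, and -0.38 without Vector replicate 2), short of the threshold in size. ARNT2 also fell without overlap, at -0.49 (adjusted p 0.189 in limma, and -0.29 without Vector replicate 2). Of the 10 genes, 2 lay above and 3 below without overlap, beside 18.4% and 16.5% of all genes tested. RNA levels do not tell the amount of HIF protein, which is set mainly by its breakdown.

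Of 35 other hypoxia-inducible genes tested, BNIP3 among them, 0 were called higher and 2 lower, with a median of 0.06. P4HA1, a collagen prolyl hydroxylase subunit, had 676, 604 and 686 normalized counts in Vector and 282, 413 and 346 in shEZH2. It fell by 0.93 on the log2 scale (adjusted p 0.0306 in limma), and was the one gene of this list with an adjusted p under 0.05 with all 6 libraries, a p that ranged up to 0.173 over the settings. Without Vector replicate 2 there were 9 such genes in the list, P4HA1 among them. The share of all genes in that fit is not given here, so the 9 are not a trait of this list. Among the genes of pyruvate entry into mitochondria the count also rose, from 0 to 5. For the enzymes from glucose to triose phosphate it rose from 0 to 4, and for those from triose phosphate to lactate from 1 to 5. It rose from 1 to 3 for the carbonic anhydrases and from 0 to 1 for oxygen sensing and HIF subunits. It stayed at 2 for the transporters and at 2 for the regulators of flux. TMEM45A, a transmembrane protein, fell by 0.89 (adjusted p 0.189 in limma) with overlapping groups, and its call was lost without any single library other than Vector replicate 2, without which it fell by 1.26. Of the 35 genes, 19 had a positive log2 fold change, beside 8157 of the 15251 genes tested. BHLHE40, named here after its values were seen, rose by 0.55 without overlap (adjusted p 0.0900 in limma), short of the threshold in size. Its log2 fold change was 0.43 without Vector replicate 2. In this list 4 genes lay above and 5 below without overlap, beside 18.4% and 16.5% of all genes tested. Those below included KDM3A, MXI1 and WSB1, at -0.51, -0.48 and -0.48 (adjusted p 0.144, 0.125 and 0.151 in limma). Without Vector replicate 2 these 3 were at -0.42, -0.58 and -0.62. VEGFA, the angiogenic factor, also named after its values were seen, had a log2 fold change of -0.43 (adjusted p 0.199 in limma), with overlapping groups. Without Vector replicate 2 it was -0.59 with an adjusted p of 0.00138 in limma, past the threshold, and over all settings the adjusted p ranged from 0.00138 to 0.726. Several classical targets were near the limit of detection in both groups: the mean normalized counts in Vector and shEZH2 were 3.83 and 1.49 for CA12 and 5.19 and 3.66 for ANGPTL4, and ADM was at 0 in all Vector libraries and at 2.65 on average in shEZH2.

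The other carbonic anhydrases, relatives of CA9, were low except for CA14. Of 4 tested, CA13 rose by 0.74 (adjusted p 0.0886 in limma) and CA5B, a mitochondrial form, fell by 1.17 (adjusted p 0.0181 in limma), from 124, 151 and 153 normalized counts to 57.1, 63.1 and 67.8. The adjusted p of CA5B ranged up to 0.124 over all settings. CA14 led the family, at 56.8% of its reads per kilobase in Vector and 48.9% in shEZH2, followed by CA11 at 20.6% and 29.7%, both with overlapping counts. The log2 fold change of CA14 was -0.41 (adjusted p 0.349 in limma) and -0.69 without Vector replicate 2 (adjusted p 0.00304), where it passed the threshold, and its adjusted p over all settings ranged from 0.00304 to 0.609. That of CA11 was 0.36, and -0.14 without that library. Of the 8 melanocyte markers, TYRP1 and MLANA were called higher, with log2 fold changes of 1.68 and 0.88 (0.39 without Vector replicate 2 for MLANA), and TYR lower, at -0.97 (-1.22 without that library). Their part in the values above was not tested.

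**Figure D3:**
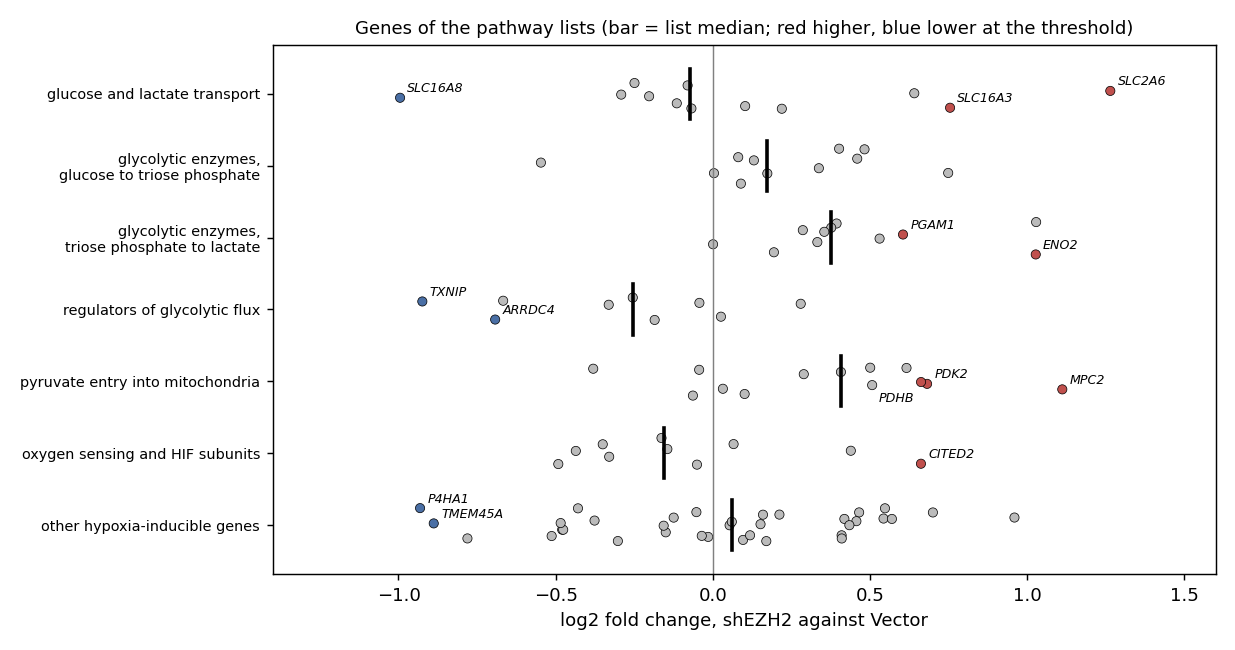
Log2 fold change (x axis) of every tested gene of 7 pathway lists, with the list median as a bar and genes past the threshold named (red higher, blue lower). The enzymes from triose phosphate to lactate lie at or right of 0 with a median of 0.38, while hypoxia-inducible genes outside glycolysis spread to both sides of 0 with a median of 0.06.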

How the data were processed

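RNA-seq libraries of HMV-II cells (3 Vector, 3 shEZH2) were taken from 1 deposited table. Per the labels, the authors counted reads with featureCounts 1.5.0-p3, and the submitters' processing notes name DESeq2 1.20.0. The deposited values are signal: read counts that the authors divided by 1 size factor per library. The aligner and the strand setting are not given in the sources used here. The notes name hg19, whereas the table's coordinates are GRCh38. All values (100%, tolerance 0.01) were whole multiples of 1 read, which gave back the counts. The columns of group means and of the authors' fold changes and p-values were not used, and 0 columns of single libraries were left out.

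Because the values are normalized, limma 3.58.1 (lmFit, eBayes with trend) was fitted on log2(normalized count + 1). A minimum mean of 10 left 15251 genes, and fold changes are on that scale, which understates those of low genes. P-values were adjusted by Benjamini-Hochberg over these genes. Isozyme shares were compared by the exact two-sided permutation test. The genes and lists were chosen with earlier results of these data known. Named were the 10 genes, EZH2, in each list up to 3 of the largest and 3 of the smallest log2 fold changes past the threshold, isozymes with at least 10% of a family, the family leaders, and cell type markers. Alternatives were pseudocounts of 0.1 and 5, no minimum and a minimum of 50, adjusted p, a replicate block, TMM scaling, edgeR 4.0.16 and DESeq2 1.42.0 on the recovered reads, removal of a gene length trend by loess, and each library left out. For named genes other than the 10 these alternatives were added after the data were seen. The scripts were tested on simulated data. Promoter windows came from RefSeq (GRCh38.p14). R 4.3.3 and Python 3.11.15 were used.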

Additional observations from a re-analysis of the deposited data

How the results depend on the processing

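No alternative called any of the 9 genes higher. The number called lower went from 0 to 1 (HK2) with DESeq2 and with edgeR under upper-quartile factors, and ranged from 0 to 1 with single libraries left out (1 without Vector replicate 1 or 3). With an adjusted p, 345 genes were called higher and 279 lower in place of 1151 and 1078. The difference in the ENO1 share, shEZH2 minus Vector, was -2.51 points when reads were not divided by gene length. The signs of PFKP, ALDOA and PDK1 were not stable. With single libraries left out PFKP ranged from -0.055 to 0.075, ALDOA from -0.16 to 0.22 and PDK1 from -0.24 to 0.16. With the length trend removed these were -0.042, -0.017 and 0.23, and PFKP was -0.023 with edgeR under upper-quartile factors and -0.016 with DESeq2. With libraries left out the direction also turned for BNIP3L (-0.11 to 0.065) and CA11 (-0.14 to 0.66). HK2, ENO1, BNIP3, LDHA, PGK1 and SLC2A1 kept their direction under every alternative. The cause of these changes was not tested. With a replicate block, 0 of the 9 genes were called in either direction, the log2 fold changes were as without it, 2 of the 9 had an unadjusted p under 0.05, and 1322 and 1112 genes were called. The labels do not say whether the replicate numbers pair the samples. Same-numbered deviations from the group means correlated at 0.495, 0.360 and -0.274. Vector replicates 1 and 2 correlated best with their own number, and Vector replicate 3 with another. Deviations within a group of 3 libraries depend on each other, so these correlations cannot decide whether the samples are paired. On the recovered reads, edgeR with TMM called 1086 genes higher and 1191 lower. ALDOA, PDK1 and BNIP3 had the fewest reads of the 9, and 3 libraries per group cannot reach an exact p under 0.1.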
